A study of Mus musculus with 6 samples.

Results

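The presynaptic terminal releases transmitter through a small set of proteins that carry out the steps of 1 vesicle cycle, and 48 genes of this release machinery were followed here in the prefrontal cortex (PFC) of male mice after early life stress (ELS). The members were chosen by gene symbol as genes of the synaptic vesicle, the SNARE complex and the active zone, with earlier results of these data known. All 48 had a row among the 22000 gene symbols of the count table, and all 48 had at least 1 CPM (the count scaled to a library of fixed size) in every mouse of at least 1 group, as did 13185 symbols in all. The study took bulk RNA from the PFC of C57BL/6N males at 9 weeks of age and made 1 library per mouse, from 3 control and 3 ELS mice. ELS mice were socially isolated: each was housed alone under a filter cap from weaning onward. Control mice lived 4 to a cage without a cap, the mice came from litters of the same mother, and behavioural testing preceded dissection. No allele or drug was used, so housing was the difference between the groups, and the effect of isolation could not be told apart from that of the cap. The litter and, for controls, the cage of each of the 6 mice are not given. The p-values therefore concern these 6 animals and take no account of litter or cage.

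Transmitter-filled vesicles are tethered by synapsins, brought to the membrane by Rab3 and its effectors, and held at the release site by the active zone scaffold of RIM, Bassoon and Piccolo. Munc13 proteins prime them, the SNARE proteins of vesicle and plasma membrane zip together under the guard of complexin, and synaptotagmins trigger fusion when calcium enters. NSF then takes the SNARE complexes apart, and dynamin, amphiphysin and synaptojanin retrieve the vesicle membrane. In cortex most terminals belong to glutamatergic pyramidal cells, which fill their vesicles through VGLUT1, with smaller contributions from interneurons and from axons that arrive from thalamus. In bulk RNA, fewer cells of a type and less RNA per cell cannot be told apart, and the RNA of axons that enter the PFC stays for the most part in the cell bodies elsewhere.

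Total counts ran from 28405795 to 35241743 per mouse, and each ELS library was deeper than each control library. The factors of the trimmed mean of M values (TMM), which scale the library sizes, ran from 0.992 to 1.021. Members had from 195 counts (Syn3 in the mouse with the fewest) to 139409 counts (Snap25). The labelled tissue carried cortical neurons: 11 of 11 cortical excitatory markers passed the CPM filter, and their summed level ran from 4193 to 5110 CPM. Markers of striatal projection neurons were also present, and their summed level was highest in control mouse 3 and ELS mouse 1, at 1053 and 1049 CPM against 756 to 857 CPM in the remaining mice. Oligodendrocyte markers were highest in the same mice, at 8141 and 7222 CPM against 6198 to 6825 CPM. The part of these cells in the results that follow was not tested. A fit with the striatal markers as a covariate is given below. Its score was 0.40 in control mouse 3 and 0.45 in ELS mouse 1, and from -0.36 to -0.070 in the remaining mice. That fit therefore cannot tell striatal cells from anything else that sets these mice apart.

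The main comparison asked which release genes differed between ELS and control mice. No member was called: 0 of 48 passed edgeR's quasi-likelihood test, where a call needed an adjusted p under 0.05 together with a log2 fold change of more than 0.3 in either direction, and 0 of 48 passed in DESeq2. The background was also low, with 0.0152% of all genes tested called by edgeR (2 genes) and 0.137% by DESeq2 (18 genes). At an unadjusted p under 0.05, edgeR gave 2 members, Syt2 and Syt17, which is 4.17% of the members beside 4.23% of all genes. The smallest adjusted p of any member was 0.99998 in edgeR and 0.955 in DESeq2. Groups did not overlap for 2 members with ELS higher, Syt17 and Sypl, where the background was 3.81% of all genes, and for 0 members with ELS lower, where it was 4.47%.

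The data also bounded how large a difference could have gone unseen. The fitted log2 fold change of ELS over control was positive for 16 members and negative for 32. The share of all genes with each sign was not counted. The median of the members was -0.01, with a range from -0.35 to 0.17, and the median of all genes lay at -0.0046. The sign of the member median depended on the mice, at 0.031 without ELS mouse 1 and -0.045 without control mouse 3. The median size of the change, without its sign, was 0.046 for the members and 0.058 for all genes tested. For 20 members (41.7%) the 95% interval lay within 0.2 log2 units of no change, a bound of 14.9%, beside 23.5% of all genes. For 38 members (79.2%) it lay within 0.3, a bound of 23.1%, beside 61.4% of all genes. The 10 members with a wider interval were Syn3, Synpr, Syt2, Syt17, Vamp1, Rims3, Bsn, Pclo, Doc2b and Slc17a6. Of these, Syt2 alone reached beyond 0.4, with a bound at -0.66. The members are more abundant than most genes, with a median of 36.4 CPM per kilobase of exon against 6.41. Shares over genes of like level were not taken, so the narrower intervals are no sign that release genes were steadier. These intervals rest on 3 mice per group and on a variance that the fit shares between genes. Larger changes in a part of the cells are not bounded by them.

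**Figure D1:**
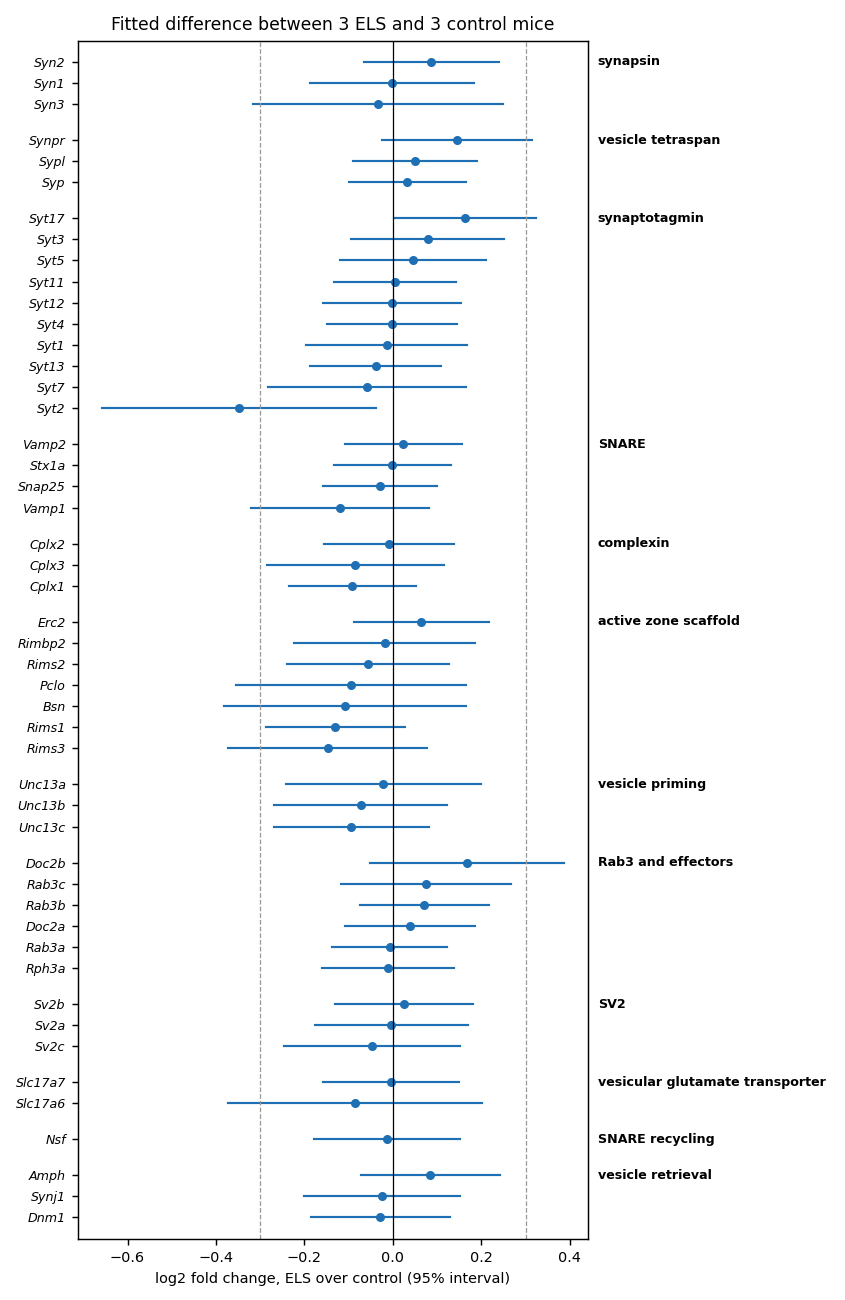
Fitted log2 fold change of ELS over control (x axis) for each of the 48 genes (y axis, grouped by role and ordered by value), with 95% intervals from edgeR's quasi-likelihood fit over 3 mice per group. Dashed lines mark 0.3 in each direction; the intervals of Syt2 and Syt17 leave out 0, and that of Syt2 reaches from -0.66 to -0.039.

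As a share of each library, the members took 2.41, 2.35 and 2.25% of counts in control mice 1, 2 and 3 and 2.28, 2.39 and 2.33% in ELS mice 1, 2 and 3. The means were 2.34% ± 0.0819 in control and 2.33% ± 0.0563 in ELS mice (SD, n = 3). The difference of -0.0036 percentage points was far smaller than the spread between mice (p = 1 by two-sided exact permutation, which cannot go under 0.1 with 3 mice per group).

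Levels were next compared between genes as TMM-scaled CPM per kilobase of annotated exon, since longer transcripts collect more reads. The median member stood at 36.4 CPM per kilobase, against 6.41 for the 12579 genes that could be ranked. Among those genes, 8 members were in the top 1%, 20 in the top 5% and 23 in the top 10%. Snap25 was the most abundant member at 581 CPM per kilobase, with its lowest mouse (565) far above the highest mouse of the next gene, Vamp2 (331). Vamp2 (318), Slc17a7 (297), Cplx1 (295), Cplx2 (295) and Syp (265) came next by their means, with ranges over the 6 mice that overlapped from each gene to the next. Rab3a (246), Dnm1 (219), Syt1 (192) and Syn1 (171) were below Syp; the range of Rab3a did not overlap that of Syp, and the ranges from Rab3a to Syn1 again overlapped from each to the next. The lower end held Doc2b (4.42), Slc17a6 (3.55), Sv2c (2.49), Unc13b (2.14) and Syn3 (0.615). Of the 47 neighbouring pairs in this order, 11 had ranges that did not overlap. The order depends on the length used: with the longest annotated transcript in place of all exons, Snap25, Vamp2 and Slc17a7 remained the first 3 at 809, 550 and 520 CPM per kilobase, and Cplx1 and Cplx2 were at ranks 7 and 8.

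**Figure D2:**
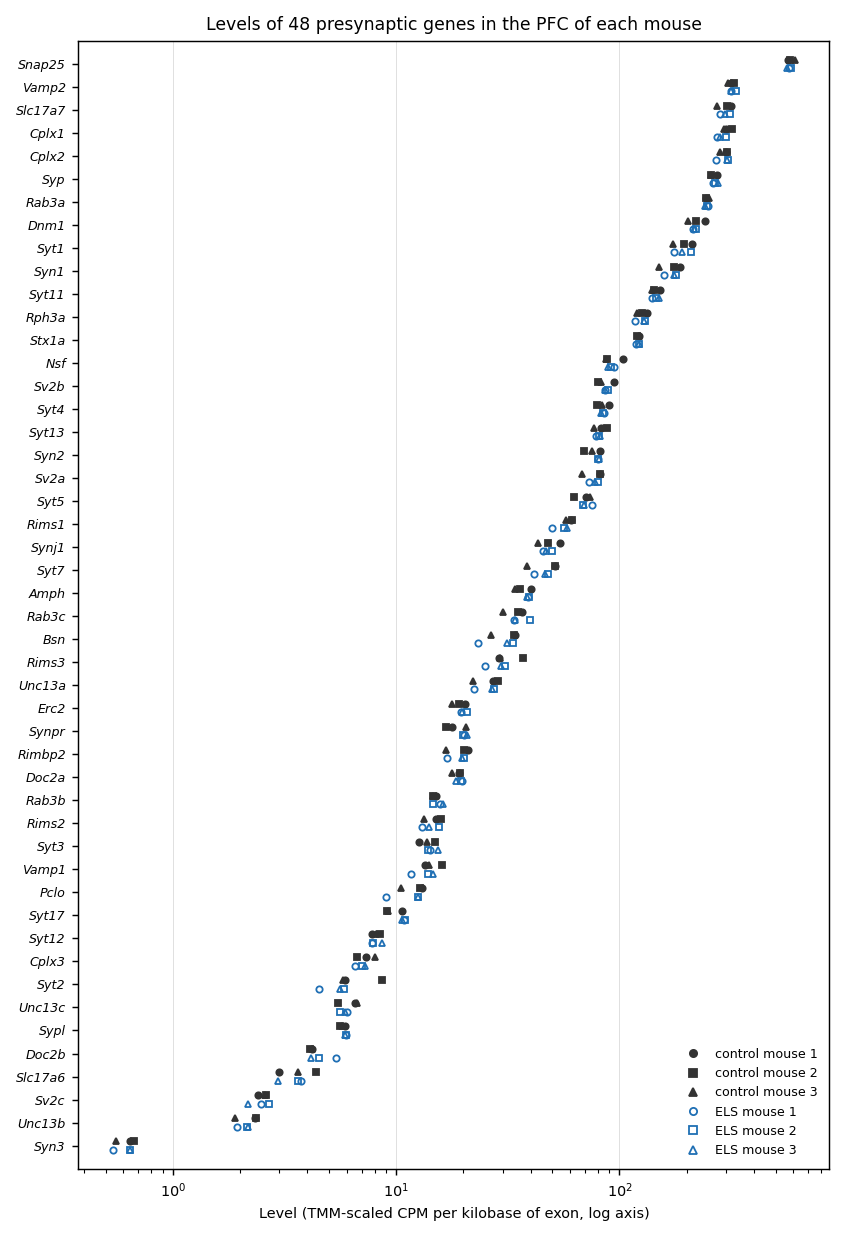
Level of each of the 48 genes (y axis, ordered by mean) in each of the 6 mice, in TMM-scaled CPM per kilobase of annotated exon on a log axis (x axis). Filled black symbols are control and open blue symbols ELS mice; levels run from 0.615 for Syn3 to 581 for Snap25, and the mice of both groups lie together on each line.

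The SNARE proteins form the fusion complex itself. Snap25, which supplies plasma membrane helices of the complex, lies on chromosome 2 from 136713453 to 136782428 on the plus strand (GRCm38, as are the other positions). It measured 3845, 3960 and 4160 CPM in control mice 1, 2 and 3 and 3893, 3987 and 3838 CPM in ELS mice 1, 2 and 3. The groups overlapped, and the log2 fold change was -0.030 with a 95% interval from -0.16 to 0.099. Vamp2, the main vesicle SNARE of forebrain, measured 1197, 1244 and 1166 CPM in control and 1199, 1262 and 1205 CPM in ELS mice. Its highest control value lay between ELS values, and the log2 fold change was 0.024 (95% interval -0.11 to 0.16). Stx1a, the plasma membrane syntaxin, varied little, at 326, 319 and 325 CPM in control and 315, 327 and 328 CPM in ELS mice, with an interval from -0.13 to 0.13. Vamp1, the vesicle SNARE known best from spinal cord, brainstem and fast-spiking interneurons, varied more. It measured 137, 163 and 142 CPM in control and 118, 141 and 149 CPM in ELS mice, with control mouse 2 highest and ELS mouse 1 lowest. Its log2 fold change was -0.12 (95% interval -0.32 to 0.082; unadjusted p = 0.222 in edgeR), and it was -0.041 without control mouse 2 and -0.030 without ELS mouse 1.

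Synaptotagmins are vesicle proteins, several of which sense calcium, and they gave both members at an unadjusted p under 0.05. Syt1, the main fast calcium sensor of forebrain terminals, measured 1769, 1615 and 1449 CPM in control and 1467, 1738 and 1583 CPM in ELS mice. Control mouse 3 and ELS mouse 1 were its lowest mice, the groups overlapped throughout, and the log2 fold change was -0.014 (95% interval -0.20 to 0.17). Syt2, the fast sensor of brainstem and spinal terminals and of parvalbumin interneurons, lies on chromosome 1 from 134646677 to 134762593 on the plus strand. It measured 45.0, 66.1 and 44.3 CPM in control and 34.4, 44.8 and 42.7 CPM in ELS mice. A single high control mouse and a single low ELS mouse stood apart, while control mice 1 and 3 and ELS mice 2 and 3 lay between 42.7 and 45.0 CPM. Its log2 fold change of -0.35 was the largest in size of the 48 (SE 0.14, 95% interval -0.66 to -0.039, unadjusted p = 0.0303 in edgeR and 0.0133 in DESeq2), and it did not pass adjustment over all genes. Without control mouse 2 the log2 fold change was -0.13, and without ELS mouse 1 it was -0.24. Pvalb, which marks the interneurons that use Syt2, measured 59.3, 73.2 and 70.3 CPM in control and 57.0, 56.7 and 67.8 CPM in ELS mice. The 11 interneuron markers together ran from 1317 to 1436 CPM in control and from 1340 to 1422 CPM in ELS mice, and the thalamic markers together from 241 to 261 CPM in control and from 232 to 252 CPM in ELS mice. Most of the thalamic sum came from Rora (82.4 to 125 CPM over all mice) and Lhx2 (68.6 to 75.9 CPM). The sum therefore says little of the scarcer thalamic markers. The part of these cell types in the Syt2 values was not tested.

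Syt17, a synaptotagmin relative that lacks a transmembrane segment, lies on chromosome 7 from 118380717 to 118448222 on the minus strand. It measured 55.0, 47.6 and 47.9 CPM in control and 56.3, 57.1 and 55.2 CPM in ELS mice. The lowest ELS mouse was just above the highest control mouse, and the coefficient of variation (CV) was 1.69% in ELS and 8.34% in control mice. The log2 fold change was 0.16 (SE 0.074, 95% interval 0.0019 to 0.32, unadjusted p = 0.0477 in edgeR and 0.0528 in DESeq2). Syt7, a slow high-affinity sensor linked to facilitation, measured 384, 386 and 289 CPM in control and 310, 359 and 347 CPM in ELS mice. The lowest mouse was again control 3, with ELS mouse 1 next, and the interval ran from -0.28 to 0.17. Syt3, Syt4, Syt5, Syt11, Syt12 and Syt13 had log2 fold changes from -0.039 to 0.078, each with overlapping groups and an interval that included 0. Genes on the opposite strand share 17.2% of the Syt12 and 14.5% of the Syt4 exon bases, and the strand setting of the counting is not given.

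**Figure D3:**
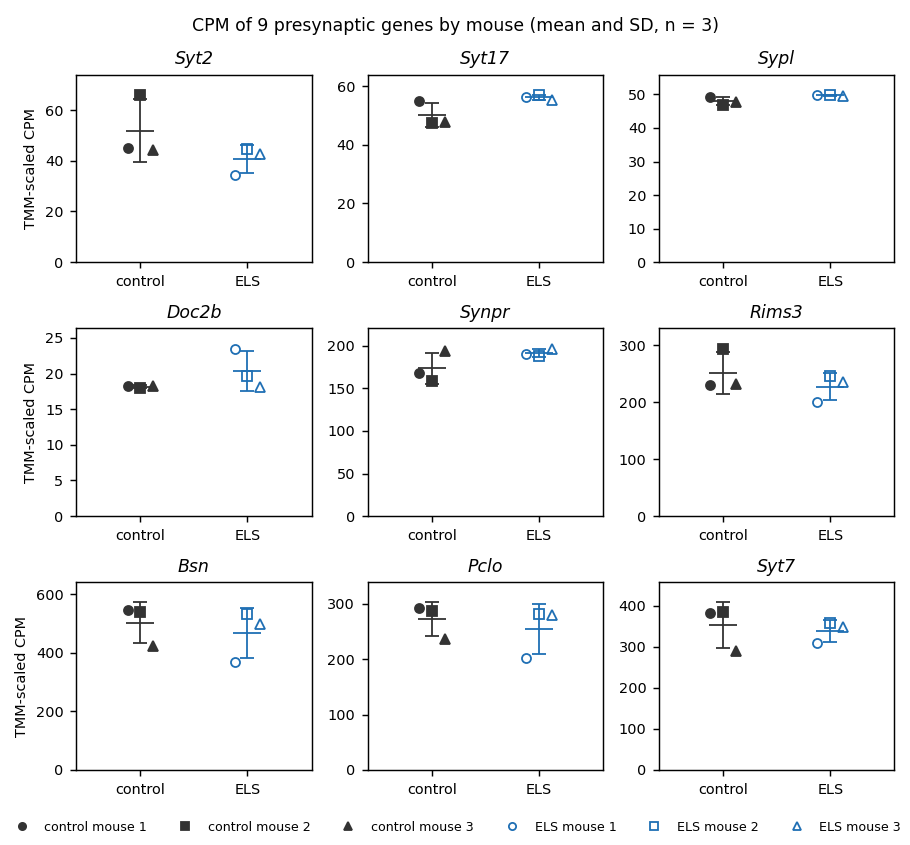
TMM-scaled CPM (y axis, from 0) of 9 genes in control and ELS mice, with symbols for the mice, horizontal lines for the means and error bars for the SD (n = 3 per group). For Syt2, control mouse 2 at 66.1 and ELS mouse 1 at 34.4 CPM stand away from the remaining mice, and for Bsn and Pclo control mouse 3 and ELS mouse 1 are the low points of their groups.

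Because Syt2 had the largest fitted change, its promoters are printed, followed by that of Syn1, the 1 member whose promoter held a full cyclic AMP response element (CRE), the site of the activity-regulated factor CREB. The sequences come from RefSeq on GRCm38.p6 and hold the 250 bases before the transcript start. For Syn1, bases that GENCODE places in its first exon were left out, so 164 remain. They are written 5′ to 3′ on the strand of the gene. Capitals mark the CRE (TGACGTCA), its core (TGACG) and the GC box (GGGCGG), each searched on both strands, so that the reverse complements are in capitals too. The Syt2 starts were chr1:134646362-134646611 and chr1:134709050-134709299, both on the plus strand, the second of them inside the gene and outside GENCODE exons. The first also crosses an exon of the non-coding gene Gm26783 on the minus strand. The Syn1 sequence is chrX:20921005-20921168 on the minus strand.
Syt2, upstream start: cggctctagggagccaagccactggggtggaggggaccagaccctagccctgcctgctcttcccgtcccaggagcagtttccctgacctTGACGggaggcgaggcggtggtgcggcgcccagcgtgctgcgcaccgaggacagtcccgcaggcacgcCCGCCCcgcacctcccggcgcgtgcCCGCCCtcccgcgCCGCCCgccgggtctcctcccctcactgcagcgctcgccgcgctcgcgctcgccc
Syt2, downstream start: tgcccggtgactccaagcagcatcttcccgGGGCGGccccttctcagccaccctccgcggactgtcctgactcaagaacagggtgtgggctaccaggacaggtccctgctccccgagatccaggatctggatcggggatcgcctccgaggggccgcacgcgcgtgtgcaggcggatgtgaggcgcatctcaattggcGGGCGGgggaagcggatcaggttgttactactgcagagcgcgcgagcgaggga
Syn1: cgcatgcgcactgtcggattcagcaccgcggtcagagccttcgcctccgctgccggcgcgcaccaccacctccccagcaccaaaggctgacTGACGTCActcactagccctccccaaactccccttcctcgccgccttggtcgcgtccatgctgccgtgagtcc

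The upstream Syt2 promoter held 1 CRE core and 3 GC boxes in 250 bases with a GC content of 76.0% and 30 CpG pairs. The downstream promoter held no CRE core and 2 GC boxes, with a GC content of 66.4%. In Syn1 the core matches were the CRE itself read on both strands. Of the members, 36 had a promoter in the RefSeq table. The CRE was found in 2.78% of them (Syn1) and in 1.77% of 27025 genes. Its core was found in 9 members (25.0%, against 19.8% of all genes), and the GC box in 25 (69.4%, against 35.4%). The TATA box (TATAAA) was found in 2 members, Rab3b and Sv2b (5.56%, against 14.3%). The 27025 genes include many outside the 13185 that passed the CPM filter, which all members did. These shares therefore compare unlike sets. The core lies within the full CRE, so those matches overlap. The table gives sites in sequence and no measure of binding.

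Synapsins coat the vesicle surface and tether vesicles in the reserve pool. Syn1 measured 619, 580 and 496 CPM in control and 521, 592 and 581 CPM in ELS mice. Its lowest mice were control 3 and ELS 1, and the fitted log2 fold change was -0.0012 (95% interval -0.19 to 0.18). Syn2 had a log2 fold change of 0.086 and an ELS group with a CV of 0.688%. Syn3, the scarce synapsin at 7.64 ± 0.736 CPM in control and 7.47 ± 0.752 CPM in ELS mice (SD, n = 3), had an interval from -0.32 to 0.25. Of the Syn3 exon bases, 14.1% are shared with Timp3 on the opposite strand.

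Of the vesicle tetraspan genes, Syp encodes synaptophysin, an abundant partner of Vamp2 on the vesicle. It measured 1417, 1341 and 1339 CPM in control and 1361, 1392 and 1438 CPM in ELS mice, with overlapping groups and a log2 fold change of 0.033 (95% interval -0.099 to 0.16). Of its exon bases, 16.8% are shared with the antisense gene Gm14703. Sypl, a relative expressed in many tissues, measured 49.38, 46.96 and 47.71 CPM in control and 49.88, 49.82 and 49.43 CPM in ELS mice. Its groups did not overlap, but the gap between them was smaller than the spread of the control mice, and the log2 fold change was 0.050 with an unadjusted p of 0.454 in edgeR. Synpr, or synaptoporin, measured 169, 159 and 193 CPM in control and 191, 188 and 197 CPM in ELS mice. Control mouse 3 fell among the ELS mice, and the log2 fold change was 0.14 (95% interval -0.025 to 0.31; unadjusted p = 0.0883 in edgeR). It was 0.084 without control mouse 2 and 0.23 without control mouse 3.

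Complexins bind the assembled SNARE complex and both clamp and speed its fusion. Cplx1 measured 653, 699 and 644 CPM in control and 596, 659 and 619 CPM in ELS mice. ELS mouse 2 lay above both lower control mice, and the log2 fold change was -0.091 (95% interval -0.24 to 0.052; unadjusted p = 0.192 in edgeR), or -0.054 without control mouse 2 and -0.061 without ELS mouse 1. Cplx2, the dominant complexin of pyramidal cells, measured 1482, 1500 and 1389 CPM in control and 1338, 1508 and 1496 CPM in ELS mice. ELS mouse 1 was lowest and ELS mouse 2 highest, with an interval from -0.16 to 0.14. Cplx3 stood at 21.7 ± 2.07 CPM in control and 20.5 ± 1.15 CPM in ELS mice (SD, n = 3).

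The active zone scaffold gathers calcium channels and primed vesicles, and 6 of its 7 members had a negative log2 fold change, none with an interval that left out 0. Bsn, the very large scaffold protein Bassoon, lies on chromosome 9 from 108096022 to 108190384 on the minus strand. It measured 545, 540 and 424 CPM in control and 370, 532 and 497 CPM in ELS mice. The low mice, control 3 and ELS 1, were below all 4 others, and the log2 fold change was -0.11 (95% interval -0.38 to 0.17). Pclo, its relative Piccolo, measured 292, 287 and 237 CPM in control and 202, 282 and 281 CPM in ELS mice, with the same low mice and an interval from -0.35 to 0.16. Without ELS mouse 1 the log2 fold change turned positive for both genes, at 0.032 for Bsn and 0.045 for Pclo. With the striatal markers as a covariate it was -0.011 for Bsn and -0.010 for Pclo. Rims1, the RIM protein that links Rab3, Munc13 and calcium channels, measured 446, 450 and 425 CPM in control and 365, 414 and 427 CPM in ELS mice. ELS mouse 1 was lowest, ELS mouse 3 was within the control range, and the log2 fold change was -0.13 (95% interval -0.29 to 0.026; unadjusted p = 0.095 in edgeR), or -0.067 without ELS mouse 1. Rims3, a short RIM protein, measured 230, 295 and 232 CPM in control and 200, 246 and 236 CPM in ELS mice. Like Syn3, Syt2, Vamp1, Cplx1, Rims1 and Rims2, it was highest in control mouse 2 and lowest in ELS mouse 1. The log2 fold change of Rims3 was -0.15 (95% interval -0.37 to 0.078, unadjusted p = 0.18 in edgeR). Without control mouse 2 it was -0.019, and without ELS mouse 1 it was -0.065. Rims2, Rimbp2 and Erc2 had values of -0.057, -0.019 and 0.064.

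Munc13 proteins prime docked vesicles. Unc13a, the main isoform of glutamatergic terminals, measured 343, 360 and 279 CPM in control and 282, 347 and 338 CPM in ELS mice. Control mouse 3 and ELS mouse 1 were low to nearly the same extent, and the interval ran from -0.24 to 0.20. Unc13b and Unc13c had log2 fold changes of -0.073 and -0.094, with intervals that included 0.

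Rab3 proteins and their effectors deliver vesicles to the membrane. Rab3a, the most abundant of them per kilobase of exon, varied little, at 543, 541 and 562 CPM in control and 554, 548 and 537 CPM in ELS mice. ELS mouse 3 was its lowest and control mouse 3 its highest mouse, and the log2 fold change was -0.0074 (95% interval -0.14 to 0.12). Doc2b, a calcium sensor for spontaneous release, measured 18.2, 18.0 and 18.3 CPM in control and 23.5, 19.7 and 18.0 CPM in ELS mice. It had the most positive fitted log2 fold change of the members, 0.17, yet ELS mouse 3 was inside the narrow control range and ELS mouse 1 carried most of the difference (95% interval -0.052 to 0.39; unadjusted p = 0.122 in edgeR). Without ELS mouse 1 the log2 fold change was 0.052. Rab3b, Rab3c, Rph3a and Doc2a had values from -0.012 to 0.074, and 39.4% of the Doc2a exon bases are shared with Ino80e on the opposite strand.

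SV2 proteins are vesicle membrane glycoproteins, and the brain form SV2A binds the antiseizure drug levetiracetam. Sv2a measured 379, 378 and 315 CPM in control and 339, 372 and 360 CPM in ELS mice. Control mouse 3 was lowest, ELS mouse 1 next, and the log2 fold change was -0.0033 (95% interval -0.18 to 0.17). Sv2b and Sv2c had values of 0.024 and -0.047.

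The vesicular glutamate transporters fill vesicles and mark the source of a glutamatergic terminal. Slc17a7, or VGLUT1, which marks cortical terminals, lies on chromosome 7 from 45163949 to 45176142 on the plus strand. It measured 1703, 1630 and 1481 CPM in control and 1515, 1692 and 1593 CPM in ELS mice, with overlapping groups and a log2 fold change of -0.0042 (95% interval -0.16 to 0.15). Slc17a6, or VGLUT2, which marks thalamic terminals, was far lower at 16.1, 23.6 and 19.6 CPM in control and 20.2, 19.6 and 15.9 CPM in ELS mice. Its largest spread was within the control group (CV 18.9%), and the interval ran from -0.37 to 0.20. Without control mouse 2 its log2 fold change was 0.061.

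After fusion, Nsf, the ATPase that frees SNARE proteins for reuse, measured 863, 731 and 723 CPM in control and 789, 768 and 739 CPM in ELS mice. All ELS mice lay inside the control range, and the log2 fold change was -0.013 (95% interval -0.18 to 0.15). Dnm1, the neuronal dynamin that pinches vesicles off, measured 1270, 1151 and 1059 CPM in control and 1124, 1158 and 1130 CPM in ELS mice. The ELS mice were again inside the control range, with an interval from -0.19 to 0.13. Amph and Synj1, which bend and uncoat the retrieved membrane, had values of 0.085 and -0.025.

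The spread between mice of a group was about that of other genes. The median CV of the members was 8.38% in control and 5.40% in ELS mice, beside 8.28% and 5.96% over all genes tested. The members were not spread evenly over the mice at the low end. Control mouse 3 was the lowest of the 6 for 19 members and ELS mouse 1 for 14, while ELS mouse 2 was the lowest for 0. Over all genes, control mouse 3 was the lowest for 21.4%, ELS mouse 1 for 16.3% and ELS mouse 2 for 12.9%. At the high end, control mouse 1 was highest for 16 members and control mouse 2 for 12, beside 17.2 and 19.3% of all genes, and control mouse 3 for 4, beside 25.2%. Control mouse 3 and ELS mouse 1 are also the mice in which the summed striatal and oligodendrocyte markers were highest. In the same mice, long genes were low: the correlation, across genes, between a gene's deviation from its mean over the 6 mice and its log2 exon length was -0.36 over the 48 members and -0.41 over 12579 genes in control mouse 3, and -0.48 and -0.27 in ELS mouse 1. In control mouse 1 it was 0.34 and 0.34, in control mouse 2 0.28 and 0.25, in ELS mouse 2 0.42 and 0.23, and in ELS mouse 3 0.091 and -0.068. Genes are not independent replicates, and they share the library and its depth, so these correlations are descriptions. With the striatal markers as a covariate, 0 members were called, beside 0.228% of all genes (30 genes), and the smallest adjusted p of a member was 0.473 in edgeR. With control mouse 3 and ELS mouse 1 both left out, 0 members were called, beside 0.204% of all genes (27 genes), and the smallest adjusted p of a member was 0.204 in edgeR.

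**Figure D4:**
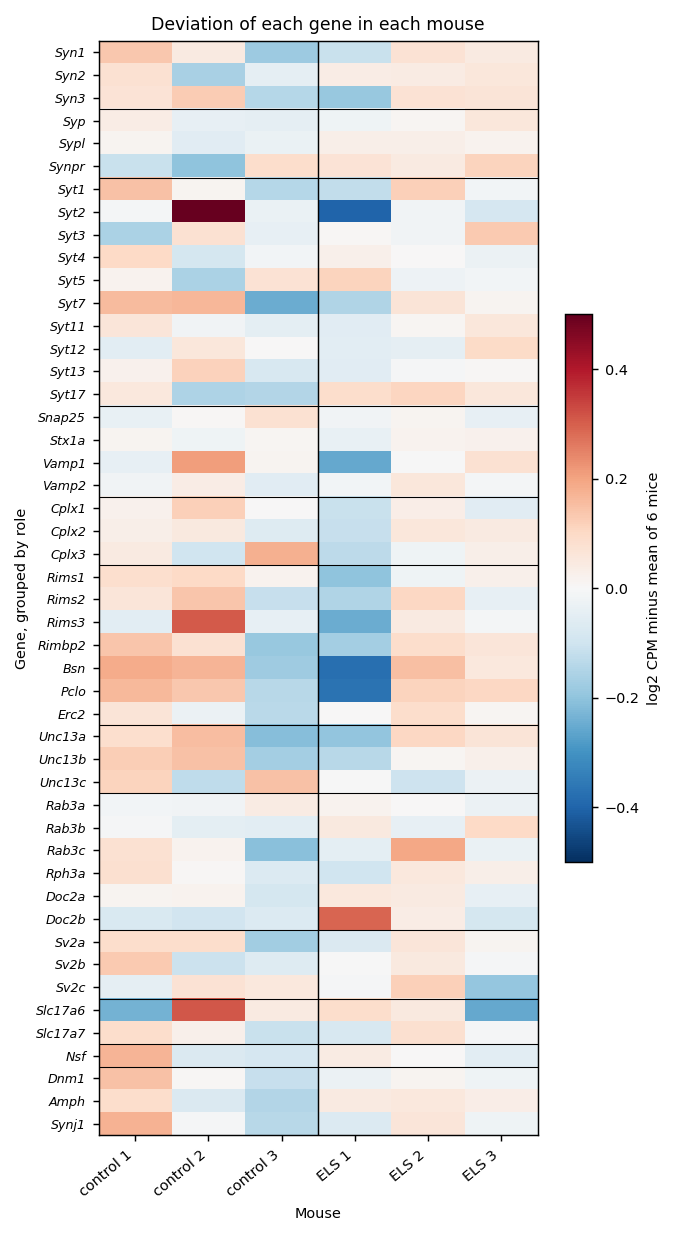
Deviation of log2 CPM from the mean of the 6 mice (colour, in log2 units) for each of the 48 genes (rows, grouped by role) in each mouse (columns, control to the left and ELS to the right of the line). Blue cells collect in control mouse 3, the lowest mouse for 19 genes, and in ELS mouse 1, the lowest for 14.

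Related genes with the same task were then set against each other within each library, since such a ratio does not depend on library scaling. Of 17 pairs, 0 had groups that did not overlap, and the smallest exact p was 0.2 (two-sided permutation over the 20 assignments of the mice; the smallest p possible is 0.1, and the smallest adjusted p over the 17 pairs was 0.756). In 13 pairs the groups differed by less than 0.1 log2 units. The largest difference was in Syt2 over Syt1, where Syt2 counts were 2.54, 4.09 and 3.05% of Syt1 counts in control and 2.34, 2.58 and 2.698% in ELS mice. Control mouse 1 lay among the ELS mice, and the difference of -0.32 on the log2 scale had an exact p of 0.3, and it was -0.14 without control mouse 2. Vamp1 counts were 11.5, 13.1 and 12.2% of Vamp2 counts in control and 9.84, 11.1 and 12.3% in ELS mice, a log2 difference of -0.15 (exact p = 0.3), or -0.062 without ELS mouse 1, -0.22 without ELS mouse 3 and -0.097 without control mouse 2. Slc17a6 counts were 0.946, 1.44 and 1.32% of Slc17a7 counts in control and 1.33, 1.16 and 0.999% in ELS mice, so that the transcript balance of VGLUT2 to VGLUT1 varied within each group as much as between them. Pclo over Bsn had the smallest difference between groups, 0.011 on the log2 scale: Pclo counts were between 52.9 and 56.4% of Bsn counts in all 6 mice, although both genes were low in control mouse 3 and ELS mouse 1. Per kilobase of exon, Cplx1 was nearly level with Cplx2, at 93.2 to 105% of it, and Sv2b with Sv2a, at 98.1 to 121%.

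**Figure D5:**
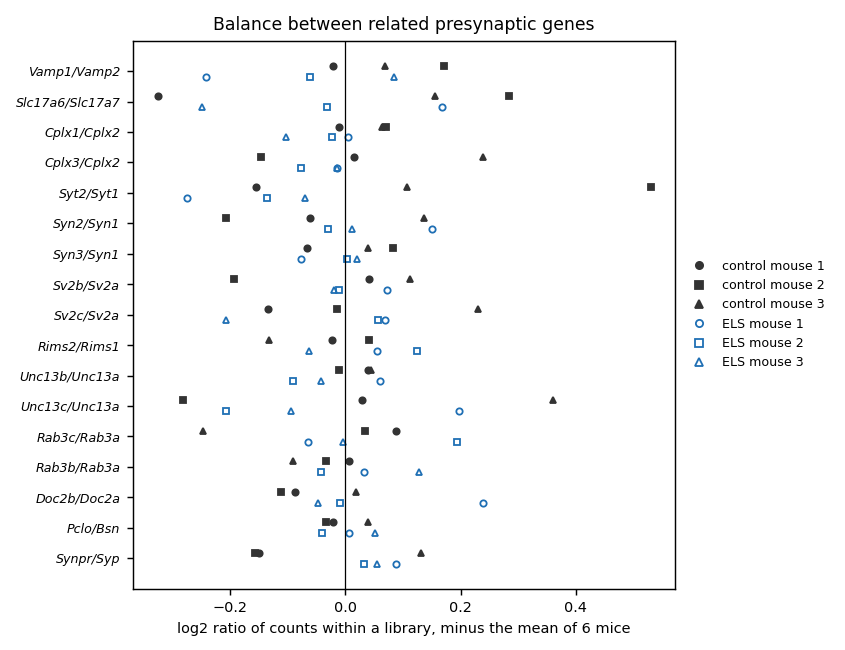
Log2 ratio of counts of related genes within each library, minus the mean over the 6 mice (x axis), for 17 pairs (y axis). Filled black symbols are control and open blue symbols ELS mice; the groups overlap in each pair, and the widest spread is in Syt2/Syt1, where control mouse 2 lies far to the right.

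Of 129 other genes of the vesicle cycle in 5 lists, 121 were tested, 0 were called by edgeR or DESeq2, and at an unadjusted p under 0.05 there were 0 with ELS higher and 3 with ELS lower (2.48%, beside 4.23% of all genes). Their median log2 fold change was -0.0033, and the groups did not overlap for 2 genes with ELS higher (1.65%, beside 3.81% of all genes) and 5 with ELS lower (4.13%, beside 4.47%). Among 28 genes of docking, SNARE assembly and SNARE recycling, 1 had an unadjusted p under 0.05. It was Snap29, a SNARE of endosomal and autophagic membranes, which measured 40.2, 37.5 and 41.6 CPM in control and 34.0, 34.2 and 32.3 CPM in ELS mice. All ELS mice were below all control mice, with a log2 fold change of -0.25 (SE 0.073, unadjusted p = 0.0048 and adjusted p = 0.861 in edgeR). Among 21 further active zone genes it was Ppfia4, a liprin, at -0.19, and among 20 further vesicle membrane genes Syt6 at -0.26, with 1 gene in each list. The 16 proton pump subunits, which acidify the vesicle so that it can be filled, had 0 such genes and values between -0.022 and 0.047. The 36 further retrieval genes had 0 such genes and a median of -0.019.

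Marker lists of cell types, used as a measure of what the dissected tissue held, also had 0 called genes in edgeR and in DESeq2. Of 102 markers tested, 10 had an unadjusted p under 0.05 in edgeR (9.80%, beside 4.23% of all genes), 8 with ELS higher and 2 with ELS lower. No gene had an unadjusted p under 0.05 among 10 pan-neuronal, 11 cortical excitatory, 11 interneuron, 13 striatal, 8 oligodendrocyte, 7 microglial and 6 choroid plexus and blood markers tested. There was 1 with ELS higher among 8 astrocyte, 1 among 6 layer 6b and claustrum, 2 among 7 vascular and 3 among 7 olfactory and neuroblast markers, and among 8 thalamic markers 1 with ELS higher and 2 with ELS lower. Summed pan-neuronal markers stood at 4747 ± 99.7 CPM in control and 4705 ± 167 CPM in ELS mice (SD, n = 3).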

How the data were processed

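RNA-seq libraries, 1 per mouse, came from PFC tissue of 3 controls and 3 ELS animals, grouped by the sample labels. The deposited table holds raw counts per gene symbol. To make it, the authors used Trimmomatic for trimming, STAR for alignment to mm10 and HTSeq for counting reads with a unique position. The submitters' processing notes name STAR 2.7.1a and HTSeq 0.9.1, while the paper gives another STAR release, and the labels and the paper name different library kits. The annotation and strand setting used in counting are not given in the sources used here. The ELS columns carry an abbreviation of social isolation and were matched by that term and their number. Of the symbols, 27 had become dates, 2 were listed more than once, and 89.2% were found in GENCODE M21 (GRCm38, the same assembly as mm10), which gave positions and exon lengths.

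The members and the lists were chosen with earlier results of these data known. The test was edgeR 4.0.16 under R 4.3.3. It took the 13185 genes that reached 1 CPM in each mouse of control or of ELS, TMM factors, and a quasi-likelihood model in which condition was the sole term. SEs were derived from the F statistic and intervals from 12.5 degrees of freedom. That is more than the mice alone would leave, because the model shares variance between genes. Adjustment over all genes was by Benjamini-Hochberg. CPM were scaled by TMM and spreads are given as SD. Total counts ran from 28405795 to 35241743, and 3 mice per group limit the precision. Mice within a group differed beyond sampling noise (chi-square divided by its degrees of freedom, at least 6.70), so each library counted once.

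Named with values in every mouse were members with an unadjusted p under 0.05 or groups that did not overlap, the 5 with the largest fold change, the 5 with the largest CV, and the main members of each role; further genes of the pathway lists were named at an unadjusted p under 0.01. Syt6, Ppfia4 and Pvalb were named after their values were seen. Alternatives were DESeq2 1.42.0, a likelihood ratio test, limma-voom (limma 3.58.1), a replicate block, other scalings and filters, and fits without each mouse in turn; a striatal marker covariate, and leaving out control mouse 3 with ELS mouse 1, were added after the data were seen. Septin5 and Drd1 were not analysed here, and Tspoap1 was read as Bzrap1. The replicate numbers are shared between groups, but deviations of same-numbered mice correlated at -0.16, 0.26 and -0.036, so they were not treated as pairs.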

Additional observations from a re-analysis of the deposited data

How the results depend on the processing

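No member was called under any of the 14 planned and 2 added alternatives. The smallest adjusted p of a member over all of them was 0.187 in edgeR, without control mouse 3. No gene of the pathway lists was called in these fits either, but for those lists none of the alternatives was planned. The median log2 fold change of the members moved by less than the spread between mice in each, but its sign turned in some. It was 0.024 without control mouse 1, 0.0042 without control mouse 2, 0.031 without ELS mouse 1 and 0.023 with the striatal covariate. In the other alternatives it was negative, down to -0.045 without control mouse 3. Members at an unadjusted p under 0.05 numbered 1 with DESeq2 (2.08%, beside 3.72% of all genes) and 1 with the replicate block (beside 4.35%). With 1 mouse left out they numbered from 0 without ELS mouse 1 (beside 3.53%) to 5 without control mouse 3 (10.4%, beside 11.7%). With 1 mouse left out, the members whose groups did not overlap numbered 3 (6.25%, beside 15.995% of all genes, without ELS mouse 1) to 11 (22.9%, beside 29.4%, without control mouse 3). The pairs numbered 1 to 3, and fewer mice had to lie apart in these counts. The difference in the share of counts turned sign, with values from -0.048 to 0.034 percentage points. The cause of these shifts was not tested.

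Of the 26 members given in every mouse, 10 kept their direction in every alternative and 16 did not. Vamp2 turned from positive to negative and the others from negative to positive. DESeq2 gave 0.00047 for Syn1 and 0.00021 for Stx1a. DESeq2 size factors in edgeR gave 0.00047 and 0.00022, and no filter on low counts gave 0.00054 and 0.00070. Limma-voom gave 0.0026 for Syn1 and 0.00081 for Sv2a. The replicate block gave 0.0026 for Syn1 and 0.00071 for Sv2a, and changed no call, with Syt2 at -0.34 (adjusted p = 0.59 in edgeR). Upper-quartile scaling gave 0.0095 for Syn1, 0.0095 for Stx1a, 0.00098 for Cplx2, 0.0036 for Rab3a, 0.0075 for Sv2a and 0.0064 for Slc17a7. The striatal covariate gave 0.061 for Syn1, 0.042 for Syt1, 0.030 for Syt7, 0.0031 for Stx1a, 0.022 for Cplx2, 0.059 for Unc13a, 0.051 for Sv2a, 0.036 for Slc17a7, 0.0044 for Nsf and 0.0068 for Dnm1. Without control mouse 3 and ELS mouse 1, Snap25 was at 0.0063, Stx1a at 0.024, Cplx2 at 0.013 and Rab3a at 0.0029. Leaving out 1 mouse at a time gave -0.22 to 0.032 for Bsn, -0.044 to 0.042 for Cplx2, -0.092 to 0.042 for Dnm1, -0.060 to 0.075 for Nsf, -0.19 to 0.045 for Pclo, -0.020 to 0.0092 for Rab3a, -0.21 to 0.061 for Slc17a6, -0.060 to 0.041 for Slc17a7, -0.055 to 2.1e-05 for Snap25, -0.012 to 0.015 for Stx1a, -0.087 to 0.041 for Sv2a, -0.088 to 0.069 for Syn1, -0.086 to 0.059 for Syt1, -0.19 to 0.010 for Syt7, -0.13 to 0.064 for Unc13a and -0.0027 to 0.049 for Vamp2. Of the 17 ratios, 7 turned direction: Cplx3/Cplx2 (-0.16 to 0.030), Pclo/Bsn (-0.012 to 0.034), Rab3c/Rab3a (-0.020 to 0.15), Slc17a6/Slc17a7 (-0.26 to 0.048), Sv2b/Sv2a (-0.063 to 0.090), Sv2c/Sv2a (-0.13 to 0.048) and Unc13c/Unc13a (-0.23 to 0.092). With replicate numbers as pairs, the smallest exact p of a ratio was 0.25, the smallest such a test allows.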
